A study of Mus musculus with 6 samples.

Results

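The 9 genes described here encode transcription factors that make and maintain myeloid cells, the blood lineage of monocytes, macrophages, granulocytes and dendritic cells. They are Spi1, Cebpa, Cebpb, Cebpd, Irf4, Irf5, Irf8, Maf and Klf4, chosen by symbol from the 17469 genes of the deposited table. RNA-seq was measured in tdTomato+ cells sorted from bone marrow stromal cell (BMSC) cultures of 6-month-old mice, which the study calls osteoblast (OB) progenitors. The labels give 3 libraries of the genotype Ocn-Cre;Ai9 (control) and 3 of TgAPPswe;Ocn-Cre;Ai9, called TgAPPsweOCN;Ai9 below, all without treatment. Both genotypes carry Cre recombinase under the osteocalcin promoter and the Ai9 allele, a reporter that makes tdTomato once Cre has acted. The second genotype also carries APPswe, a human amyloid precursor protein bearing the Swedish familial Alzheimer's mutation, behind a stop cassette that the same Cre removes. The cells had attached to plastic and been grown and replated before the sort, so the values are those of cultured cells that passed a tdTomato gate. How many mice stood behind a library is not given in the sources used here, and p-values measure only the spread between these libraries.

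PU.1, the product of Spi1, is an ETS factor that opens myeloid enhancers and is needed for every macrophage and granulocyte. The C/EBP factors are leucine zipper proteins that bind the same DNA motif: C/EBPα (Cebpa) directs myeloid progenitors and restrains their division, while C/EBPβ (Cebpb) and C/EBPδ (Cebpd) are best known for acute-phase and inflammatory genes. IRF8 pairs with PU.1 in monocytes and dendritic cells, IRF4 does so in dendritic cells, alternatively activated macrophages and lymphocytes, and IRF5 acts below Toll-like receptors. MAF is a leucine zipper factor that helps to keep mature macrophages out of division, and KLF4 is a zinc finger factor of monocytes.

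The label of the cells was set against marker lists before the factors were read. The summed FPKM (mapped fragments scaled by transcript length and by the library's total) of 10 macrophage and monocyte markers was 3988 to 4012 among control libraries, against 3249 to 4002 among TgAPPsweOCN;Ai9 libraries. The sums covered changes in both directions, with 3 of the 10 markers up-regulated and 5 down-regulated, or 3 and 4 without the third library of both genotypes and 3 and 4 with DESeq2. Adgre1, the F4/80 antigen, went from 573.1, 546.56 and 569.91 to 2100, 1462 and 1766 FPKM, while Cd68 and Csf1r fell. The 15 stromal and osteoblast lineage markers summed to 147 to 172 in control and 114 to 200.5 in TgAPPsweOCN;Ai9 libraries. Bglap, the osteocalcin gene itself, was between 0.35 and 1.25 FPKM in control and between 0 and 0.49 FPKM in TgAPPsweOCN;Ai9 libraries, too low for the test. Markers of macrophages were thus far more abundant in the sorted cells than markers of the lineage that names them. Marker lists of other blood cells gave smaller sums, and single genes made up much of them. The 13 neutrophil and granulocyte progenitor markers summed to 60.9 to 119 FPKM in control and 74.9 to 103 FPKM in TgAPPsweOCN;Ai9 libraries, and the 8 dendritic cell markers to 16.6 to 41.5 and 8.21 to 18.9 FPKM. Csf3r, also among the PU.1-driven genes below, was at 53.5, 40.84 and 46.1 FPKM and at 51.59, 44.67 and 48.81 FPKM. Itgax alone was at 15.81, 40.9 and 29.39 FPKM in control and at 17.81, 7.31 and 12.62 FPKM in TgAPPsweOCN;Ai9 libraries. Whether these values came from neutrophils, dendritic cells or macrophages was not tested. The 7 osteoclast markers gave 34.4 to 57.3 and 34.4 to 56.7 FPKM, and the lists for mast cells, B cells, T and NK cells, erythroid cells and endothelial cells each stayed under 7 FPKM in every library. In bulk libraries, a lower value can come from fewer cells of a type or from less RNA per cell, and the 2 cannot be told apart. App, the mouse counterpart of the transgene, rose from 279 ± 3.5 to 330 ± 4.18 FPKM (SD, n = 3; log2 fold change 0.45, edgeR adjusted p = 7.87e-05). Reads of the human transgene were not separated in the table, so their part in this value was not tested. Estimated counts summed to between 19340810 and 22037840 per library, and the smallest level taken as detectable, 3 counts, was 0.136 to 0.155 CPM (counts scaled to a common library total), a floor for counting error only.

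The third library of each genotype had values between those of the other 2 for most genes on which those differed. Over genes with at least 100 counts in each library of a genotype, the first and second control libraries differed by more than 0.5 on the log2 scale in 386 genes, and the third lay between them in 367 of these (95.1%). In TgAPPsweOCN;Ai9 libraries it lay between in 561 of 574 (97.7%). When the first or the second library was taken as the middle one in the same way, the shares were 22.9% and 39.3% in control and 8.73% and 14.2% in TgAPPsweOCN;Ai9 libraries. Whether the third library shares material with the other 2 was not tested, and values without it stand beside some of the results.

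All 9 factors passed edgeR's filter on low counts, and 8 differed between the genotypes by adjusted p alone. Spi1, Cebpd, Irf5 and Maf were higher and Cebpa, Irf4, Irf8 and Klf4 lower in TgAPPsweOCN;Ai9 cells, while Cebpb did not pass. Of the 12701 genes tested, 32.5% were higher and 31.5% lower by the same rule (edgeR quasi-likelihood test, Benjamini-Hochberg adjusted p at or below 0.05). With the study's further threshold, a fold of 1 or more on the log2 scale in either direction, Cebpa and Irf4 were down-regulated and no factor was up-regulated, against 9.2% of all genes down-regulated and 8.9% up-regulated. That split was 1169 genes down and 1130 up, and it moved to 1732 down and 846 up with scaling by library size only. No factor was up-regulated with DESeq2 or limma either, and 4 were higher at an unadjusted edgeR p under 0.05. The median log2 fold change was 0.0028 over the 9 factors and -0.019 over all genes tested. On TMM-normalized CPM (CPM corrected for the makeup of the library), the libraries of the 2 genotypes did not overlap for 8 factors, 4 higher and 4 lower. Over all genes, 34.8% had every TgAPPsweOCN;Ai9 library above every control library and 34.9% had every one below.

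**Figure D1:**
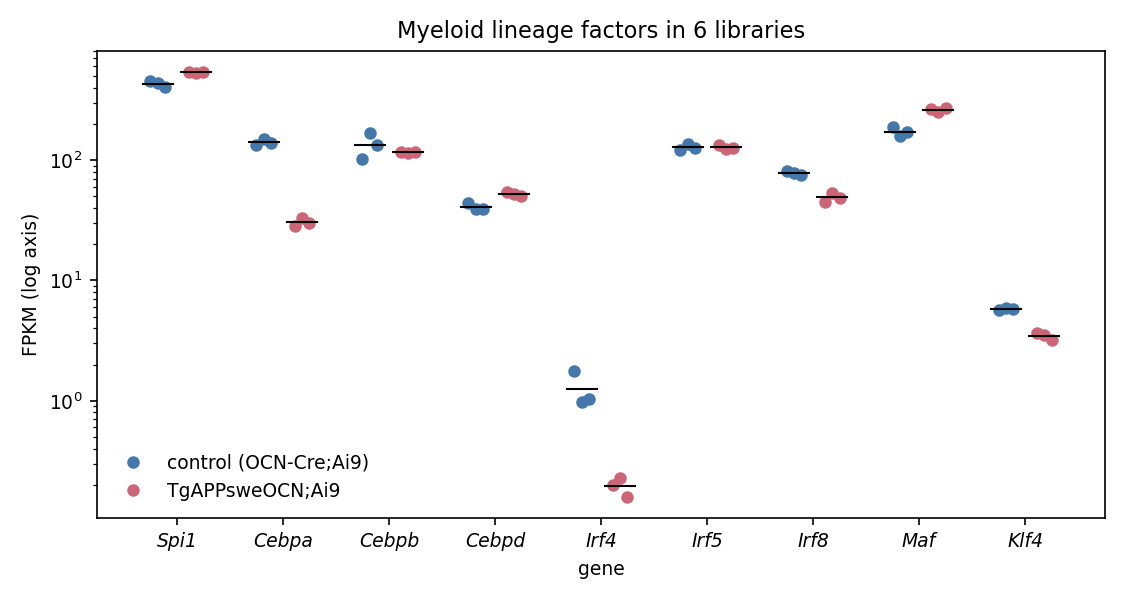
FPKM of the 9 factors in each of the 6 libraries on a log axis, with control libraries in blue, TgAPPsweOCN;Ai9 libraries in red and each genotype's mean as a black line. Cebpa fell from a mean of 140.45 to 30.4 FPKM and Irf4 from 1.26 to 0.197 FPKM, while Spi1 stayed the highest of the 9 in all 6 libraries.

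FPKM and the fitted fold changes are on different scales of normalization. FPKM divides by the library's mapped fragments, and the TMM factors were 1.07 to 1.08 in control and 0.91 to 0.94 in TgAPPsweOCN;Ai9 libraries. When library size alone set the scale, all genes had a median of -0.234, so a gene with the same FPKM in both genotypes had a fitted fold change slightly above 0. Levels below are FPKM per library, and fold changes are from edgeR on TMM-normalized counts.

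Spi1 (Entrez identifier 20375, chr2:91082390-91115756 on the plus strand of mm10, 7 exon blocks) was the most abundant of the 9. Its FPKM was 452.69, 432.51 and 406.5 in control and 538.6, 530.38 and 535.32 in TgAPPsweOCN;Ai9 libraries. All 3 TgAPPsweOCN;Ai9 libraries were above all 3 control libraries and lay within a narrower range. Its mean FPKM was above that of 99.1% of genes in control and 99.3% in TgAPPsweOCN;Ai9 cells. The log2 fold change was 0.54 (standard error 0.0619, edgeR adjusted p = 9.37e-05), under the fold threshold.

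Cebpa (Entrez identifier 12606, chr7:35119293-35121928, plus strand, a single exon) was down-regulated. Control libraries had 133.21, 150.76 and 137.38 FPKM, and TgAPPsweOCN;Ai9 libraries had 28.04, 33.27 and 29.91 FPKM. The highest TgAPPsweOCN;Ai9 library was thus far under the lowest control library, and the mean fell from 140.45 ± 9.17 to 30.4 ± 2.65 FPKM (SD, n = 3), which is 4.62-fold lower. The log2 fold change was -1.99 (standard error 0.0746, edgeR adjusted p = 1.96e-07) and stayed between -2.21 and -1.94 over 16 alternatives. In the order of the 9 factors, Cebpa went from the third place in control to the seventh in TgAPPsweOCN;Ai9 cells. The antisense gene Gm45091 overlaps 313 bases of it, and since no source used here says that strand was used in counting, reads of the 2 cannot be told apart.

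Cebpb (Entrez identifier 12608, chr2:167688915-167690418, plus strand, a single exon) did not pass the test. Its FPKM was 101.33, 168.14 and 133.8 in control and 115.94, 115.19 and 116.75 in TgAPPsweOCN;Ai9 libraries, so that all TgAPPsweOCN;Ai9 values fell inside the control range. The control libraries were the uneven ones: on the log2 scale their SD was 0.37, larger than that of 92.7% of the genes tested, and the 3 TgAPPsweOCN;Ai9 values were within 2 FPKM of each other. The log2 fold change was 0.0028 (95% interval -0.35 to 0.35, edgeR adjusted p = 0.989). The interval leaves room for a change of that size either way. Tmem189, on the opposite strand, overlaps 908 bases of Cebpb, and its own FPKM was 104.43, 136.52 and 122.18 in control and 93.6, 91.4 and 91.93 in TgAPPsweOCN;Ai9 libraries, with the same control library lowest and the same one highest. The part that overlapping genes played in the values of Cebpb, Cebpd and Irf5 was not tested.

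Cebpd (Entrez identifier 12609, chr16:15887286-15891031, plus strand) rose. Control libraries had 43.66, 39.28 and 38.83 FPKM and TgAPPsweOCN;Ai9 libraries had 54.1, 52.07 and 50.34 FPKM, without overlap. The log2 fold change was 0.58 (standard error 0.0691, edgeR adjusted p = 0.000115). Its estimated counts held fractions in all 6 libraries, as arise when reads are shared between genes, and Spidr on the opposite strand overlaps 1808 of its bases. Spidr rose as well, from 7.12 to 9.55 FPKM (log2 fold change 0.64).

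Because FPKM is scaled by length, the 3 C/EBP genes can be set side by side within a library. Cebpa made up 47.9%, 42.1% and 44.3% of their summed FPKM in control libraries and 14.2%, 16.6% and 15.2% in TgAPPsweOCN;Ai9 libraries. The share of Cebpb went from 36.4%, 46.9% and 43.2% to 58.5%, 57.4% and 59.3%, and that of Cebpd from 15.7%, 11.0% and 12.5% to 27.3%, 26.0% and 25.6%. The leading gene of the trio was Cebpa in 2 of the 3 control libraries and Cebpb in the other one, and Cebpb in all 3 TgAPPsweOCN;Ai9 libraries. The summed FPKM fell from 315 ± 40.3 to 199 ± 1.81 (SD, n = 3). No share overlapped between the genotypes (exact permutation test, two-sided p = 0.1 for each, the smallest that 3 libraries against 3 allow). The shares are parts of a whole, so a lower share of Cebpa raises the others, and they are not separate results. The mean FPKM of Cebpb itself was 134 in control and 116 in TgAPPsweOCN;Ai9 libraries.

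**Figure D2:**
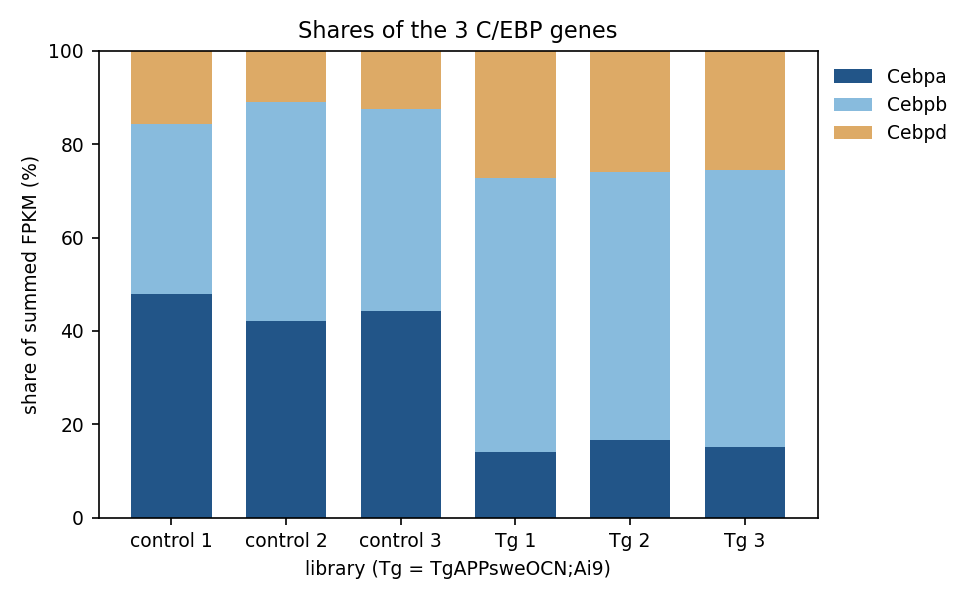
Share of Cebpa, Cebpb and Cebpd in their summed FPKM, in percent, as a stacked bar for each library. Cebpa took 42.1% to 47.9% in control and 14.2% to 16.6% in TgAPPsweOCN;Ai9 libraries (Tg).

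Irf4 (Entrez identifier 16364, chr13:30749226-30766976, plus strand, 10 exon blocks) was the lowest of the 9 and was down-regulated. It had 161, 90 and 93 estimated counts in control libraries, or 1.77, 0.98 and 1.03 FPKM, against 20, 24 and 16 counts, or 0.2, 0.23 and 0.16 FPKM, in TgAPPsweOCN;Ai9 libraries. All 6 libraries were above the floor of 3 counts, and the first control library stood well over the other 2. The log2 fold change was -2.46 (standard error 0.298, edgeR adjusted p = 0.000126). The 95% interval was wide, from -3.14 to -1.77, at low counts and with a control SD of 0.44 on the log2 scale, larger than that of 95.2% of the genes tested.

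Irf8 (Entrez identifier 15900, chr8:120736358-120756694, plus strand, 11 exon blocks) was lower in TgAPPsweOCN;Ai9 cells but under the fold threshold. Its FPKM was 81.27, 78.44 and 75.64 in control and 45.03, 52.99 and 48.48 in TgAPPsweOCN;Ai9 libraries. The genotypes did not overlap, and the log2 fold change was -0.47 (standard error 0.0642, edgeR adjusted p = 0.000255). The whole of Irf8 lies within the readthrough gene Gm20388 of the same strand.

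Irf5 (Entrez identifier 27056, chr6:29526625-29541871, plus strand, 13 exon blocks) gave a result that turned on the scaling. Its FPKM was 121.37, 135.55 and 126.91 in control and 132.07, 123.94 and 126.99 in TgAPPsweOCN;Ai9 libraries, with the ranges overlapping and the means nearly equal. On TMM-normalized CPM the values were 240, 268 and 249 in control and 309, 280 and 290 in TgAPPsweOCN;Ai9 libraries, without overlap. The log2 fold change was 0.22 (standard error 0.064, edgeR adjusted p = 0.0157), but 0.002 (edgeR adjusted p = 0.978) with scaling by library size only. Without the third control library the edgeR adjusted p was 0.0698, and without the third library of both genotypes it was 0.167. Its estimated counts held fractions in all 6 libraries, and Tnpo3, on the opposite strand, overlaps 1045 of its bases and rose from 20.2 to 24.1 FPKM (log2 fold change 0.49).

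Among the 3 IRF genes, the spread of levels widened. Irf5 was 1.63 ± 0.124 times Irf8 in control and 2.63 ± 0.297 times in TgAPPsweOCN;Ai9 libraries by FPKM, and Irf8 was 66.5 ± 18.1 times and 253 ± 43.5 times Irf4 (SD, n = 3). Neither ratio overlapped between the genotypes (exact permutation test, two-sided p = 0.1 for each, the smallest possible).

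Maf (Entrez identifier 17132, chr8:115682942-115707794, minus strand) showed the largest rise of the 9. Its FPKM was 187.4, 157.07 and 172.09 in control and 263.3, 248.41 and 270.24 in TgAPPsweOCN;Ai9 libraries. All TgAPPsweOCN;Ai9 libraries were above all control libraries, and the log2 fold change was 0.81 (standard error 0.0791, edgeR adjusted p = 3.35e-05). Klf4 (Entrez identifier 16600, chr4:55527143-55532466, minus strand) was low and fell further. It had 5.65, 5.93 and 5.76 FPKM in control and 3.65, 3.51 and 3.19 FPKM in TgAPPsweOCN;Ai9 libraries, without overlap. Its log2 fold change was -0.53 (standard error 0.0887, edgeR adjusted p = 0.000863). The antisense gene Gm15655 overlaps 2156 bases of Maf, while no annotated gene overlaps Klf4, Irf4 or Spi1.

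**Figure D3:**
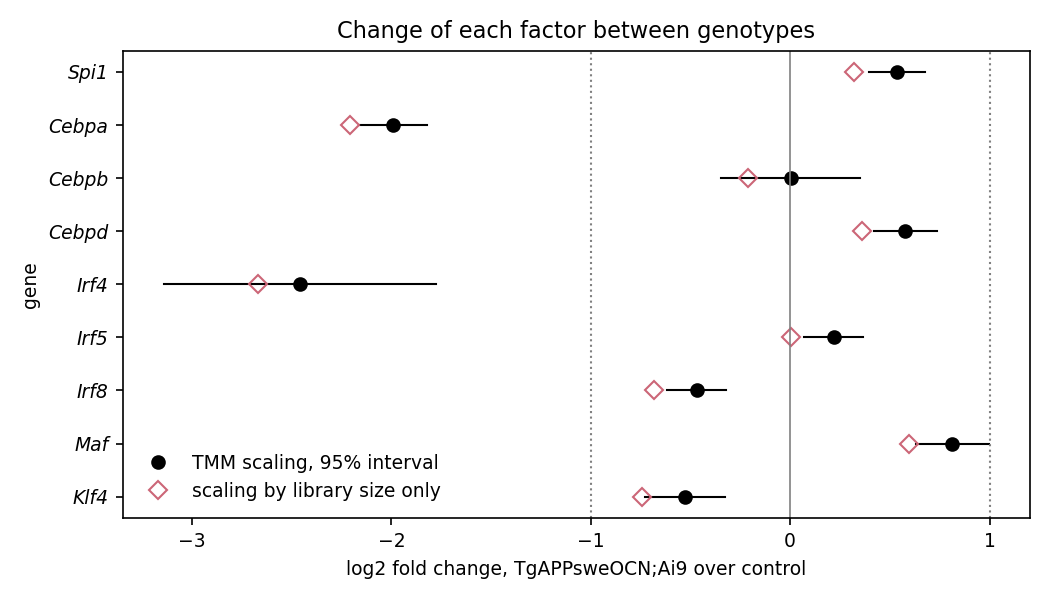
log2 fold change of each factor, TgAPPsweOCN;Ai9 over control. Filled points are edgeR estimates with TMM scaling and their 95% interval, open diamonds the estimates with scaling by library size only, and dotted lines the fold threshold of 1. Cebpa at -1.99 and Irf4 at -2.46 lie past the threshold, and Irf5 moves from 0.22 to 0.002 between scalings.

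The order of the factors by mean FPKM changed in the middle and not at the ends. In control cells it ran Spi1, Maf, Cebpa, Cebpb, Irf5, Irf8, Cebpd, Klf4 and Irf4. Cebpa and Cebpb overlapped between control libraries, as did Cebpb and Irf5, so their order is not resolved. In TgAPPsweOCN;Ai9 cells it ran Spi1, Maf, Irf5, Cebpb, Cebpd, Irf8, Cebpa, Klf4 and Irf4, with overlapping libraries for Cebpd and Irf8 only. The FPKM of all 9 together was 1132 ± 35.5 in control and 1174 ± 12.2 in TgAPPsweOCN;Ai9 libraries (SD, n = 3; exact permutation test, two-sided p = 0.2). Spi1 was 3.08 ± 0.283 times Cebpa in control and 17.7 ± 1.64 times in TgAPPsweOCN;Ai9 libraries.

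The promoters of the 4 factors that fell are shown because these genes moved in the same direction. They are RefSeq sequences of GRCm38.p6 (the mm10 assembly), the 250 bases before the start site, and RefSeq windows were matched for 6 of the 9 factors. Capitals mark letters of a motif searched on both strands: GAGGAA of PU.1 and other ETS factors, TTGCNNAA of C/EBP factors, GAAANNGAA of IRF factors, CCACCC of KLF factors and TGCTGAC of MAF factors. No match of one motif overlapped a match of another in these windows.
The window of Cebpa is chr7:35119043-35119292 on the plus strand.
Cebpa: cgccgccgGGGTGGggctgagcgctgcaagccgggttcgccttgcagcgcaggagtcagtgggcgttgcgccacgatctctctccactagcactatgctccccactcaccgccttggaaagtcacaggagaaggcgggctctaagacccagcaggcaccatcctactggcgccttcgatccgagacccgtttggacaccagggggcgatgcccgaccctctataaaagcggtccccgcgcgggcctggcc
The window of Irf4 is chr13:30748983-30749232 on the plus strand.
Irf4: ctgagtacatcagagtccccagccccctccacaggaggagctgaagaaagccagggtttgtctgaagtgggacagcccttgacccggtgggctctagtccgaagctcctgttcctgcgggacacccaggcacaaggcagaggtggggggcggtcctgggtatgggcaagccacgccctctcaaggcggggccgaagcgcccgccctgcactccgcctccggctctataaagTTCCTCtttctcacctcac
The window of Irf8 at its first start site is chr8:120736108-120736357 on the plus strand.
Irf8: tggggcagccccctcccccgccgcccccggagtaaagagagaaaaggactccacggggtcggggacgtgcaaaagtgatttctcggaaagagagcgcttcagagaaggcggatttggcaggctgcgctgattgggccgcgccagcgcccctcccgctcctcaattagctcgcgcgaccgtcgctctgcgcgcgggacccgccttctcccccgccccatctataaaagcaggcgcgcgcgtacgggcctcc
The window of Klf4 is chr4:55532476-55532725 on the minus strand.
Klf4: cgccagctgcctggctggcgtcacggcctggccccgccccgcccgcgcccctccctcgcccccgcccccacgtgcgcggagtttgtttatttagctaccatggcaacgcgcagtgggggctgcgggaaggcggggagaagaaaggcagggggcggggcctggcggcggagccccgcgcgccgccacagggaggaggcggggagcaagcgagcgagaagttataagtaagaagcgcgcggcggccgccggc

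The Cebpa window held the KLF letters once and the Irf4 window the ETS letters once, near the start site, while the Irf8 and Klf4 windows held none of the 5 motifs. The windows of Cebpb and Irf5, not printed, each held the KLF letters once. Of 32851 RefSeq windows of the same length, 28.1% held the KLF letters, 23.3% the ETS letters, 9.56% the C/EBP letters, 7.13% the IRF letters and 3.81% the MAF letters. The windows shown were rich in G and C, with 66.4% in Cebpa, 63.6% in Irf4, 67.2% in Irf8 and 74% in Klf4.

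Relatives of the factors were described from lists of each family. Of 4 other C/EBP genes, 3 were tested, and with edgeR 1 was higher and 1 lower by adjusted p alone, both short of the fold threshold. Ddit3, the stress-induced C/EBP homologous protein, went from 21.34, 18.94 and 18.54 FPKM in control to 41.62, 40.98 and 36.83 FPKM in TgAPPsweOCN;Ai9 libraries (log2 fold change 0.90, edgeR adjusted p = 1.57e-05). Cebpg, a partner that lacks an activation domain, fell from 18.17, 18.78 and 18.63 to 9.64, 8.54 and 9.12 FPKM (-0.81, edgeR adjusted p = 1.43e-05). The median over the 3 was -0.073. Cebpg passed the fold threshold with scaling by library size only, and with limma on log2(FPKM + 0.1) Ddit3 was up-regulated and Cebpg down-regulated. The FPKM of Ddit3 rose more than its normalized counts did. Cebpe, the granulocyte member, was too low to test.

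Among 6 other IRF genes, 1 of the 5 tested was up-regulated with edgeR, and the median was -0.38. Irf7, the interferon-induced master of type I interferon genes, was at 82.89, 34.67 and 49.56 FPKM in control and at 508.08, 594.02 and 531.69 FPKM in TgAPPsweOCN;Ai9 libraries (log2 fold change 3.50, standard error 0.282, edgeR adjusted p = 1.13e-05). It was below Irf5 in every control library. In all 3 TgAPPsweOCN;Ai9 libraries it was above each of the 9 factors other than Spi1. Spi1 was at 538.6, 530.38 and 535.32 FPKM there, so Irf7 was above it in the second library only. Irf2, named after its values were seen, had the largest drop of the 5, from 35.37, 36.07 and 36.89 to 17.22, 18.07 and 17.64 FPKM (-0.83, edgeR adjusted p = 2.58e-06). It was down-regulated with scaling by library size only and with limma on log2(FPKM + 0.1). Irf1 fell from 38.74, 35.14 and 34.71 to 22.33, 22.54 and 22.07 FPKM, with a log2 fold change of -0.48. Irf3 was lower (-0.38) and Irf9, the DNA-binding part of the interferon-stimulated complex, higher (0.48), each by adjusted p alone.

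For Spi1, 11 other ETS genes of blood cells were listed, of which 3 of 10 tested were up-regulated. Its closest relatives were among the 3. Spic, the factor of red pulp and iron-recycling macrophages, went from 7.24, 5.44 and 7.08 to 25.07, 34.8 and 27.73 FPKM (log2 fold change 2.36, edgeR adjusted p = 2.43e-06). Spib was at 0, 0 and 0.06 FPKM in control and at 0.57, 0.45 and 0.44 FPKM in TgAPPsweOCN;Ai9 libraries, a call at a very low level. Ets2 rose from 26.55, 27.2 and 28.42 to 140.19, 136.09 and 143.4 FPKM (log2 fold change 2.57), while Fli1 was lower by adjusted p alone (-0.65).

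Of the small MAF genes, which lack an activation domain, Maff was up-regulated (log2 fold change 1.67) while Mafg had a log2 fold change of -0.17 (edgeR adjusted p = 0.0208, or 0.0788 without the third library of both genotypes). Beside Klf4, 9 of 13 other KLF genes were tested, with 2 up-regulated and 2 down-regulated, or 1 and 2 with scaling by library size only and 0 and 2 with limma on log2(FPKM + 1). Klf6 rose from 72.99, 83.41 and 79.78 to 157.61, 141.01 and 150.89 FPKM (1.15), Klf7 rose (1.31), and Klf2, which keeps monocytes quiescent, fell from 34.39, 32.6 and 32.04 to 12.94, 11.21 and 12.59 FPKM (-1.21), as did Klf11 (-1.39).

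**Figure D4:**
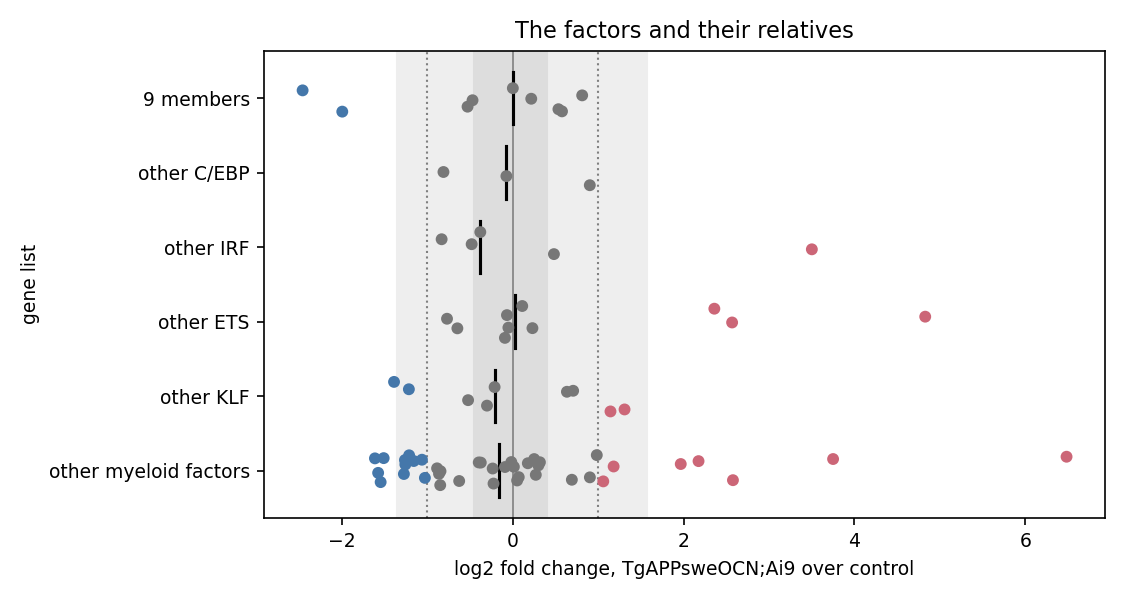
log2 fold change of the 9 factors and of 5 lists of relatives and other myeloid factors, 1 point a gene tested. Red points were up-regulated, blue points down-regulated and grey points neither, black bars are medians, dotted lines the fold threshold of 1, and grey bands hold the 5th to 95th and 25th to 75th percentile of all genes tested. Irf7 at 3.50 and Spic at 2.36 lie outside the outer band, as do Cebpa and Irf4 on the other side.

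A wider list of 43 myeloid and dendritic cell factors had 40 tested, 7 up-regulated and 11 down-regulated, with a median of -0.16. With scaling by library size only, 5 were up-regulated and 15 down-regulated, and without the third library of both genotypes 7 and 9. Batf, a partner of IRF4 and IRF8 on composite DNA elements, went from 8.32, 5.32 and 6.56 to 77.45, 80.53 and 76.41 FPKM (log2 fold change 3.75, edgeR adjusted p = 1.45e-07), and Batf3, its dendritic cell relative, from 2.23, 1.49 and 2.17 to 11.29, 10.25 and 8.85 FPKM (2.58). Both partners rose in libraries in which Irf4 and Irf8 were lower. Gfi1b was at or below 0.15 FPKM in control and at 6.05, 5.31 and 5.72 FPKM in TgAPPsweOCN;Ai9 libraries. Id1 (-1.61), Egr2 (-1.57) and Bhlhe41 (-1.54) fell.

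Cytokine receptors that signal toward these factors were mostly lower. Of 16 tested, 11 were lower and 3 higher by adjusted p alone, 3 were down-regulated and 1 up-regulated, and the median was -0.65, against -0.019 over all genes. Without the third library of both genotypes, 10 were lower and 1 higher by adjusted p alone. Csf1r encodes the receptor of the macrophage growth factor M-CSF and needs PU.1 to be switched on. Its level fell from 1239, 1201 and 1201 to 400.3, 338.57 and 372.52 FPKM (log2 fold change -1.49, edgeR adjusted p = 1.21e-06). Csf2rb, the shared chain of the GM-CSF receptor, fell (-1.16), and its partner Csf2ra was lower by adjusted p alone (-0.70). Ifngr1 fell (-1.10) and Il4ra rose (1.03, which is under the fold threshold with scaling by library size only).

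Genes that PU.1 is known to drive moved both ways. All 20 were tested, with 5 up-regulated, 3 down-regulated and a median of 0.27. Itgam, the CD11b integrin chain, rose from 263.01, 222.83 and 243.29 to 490.84, 507.66 and 508.39 FPKM (log2 fold change 1.26), and Fcgr1, the high-affinity IgG receptor, from 71.6, 64.08 and 63.83 to 119.6, 167.14 and 138.54 FPKM (1.30). Csf1r fell, as did Fcgr3 (-1.42) and Cd68, a lysosomal glycoprotein, from 1247, 1296 and 1263 to 457.42, 463.49 and 451.59 FPKM (-1.26). With scaling by library size only, 3 were up-regulated and 4 down-regulated.

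Every tested gene of the list driven by C/EBPβ and C/EBPδ was up-regulated, 12 of 12, with a median of 3.69. Over the alternatives, the lowest number up-regulated was 8. The list holds acute-phase and cytokine genes whose rise was known from these libraries when the list was made, so the count is no independent evidence of a direction. Saa3, an acute-phase protein, went from 180.84, 65.38 and 106.2 to 7562, 3893 and 5330 FPKM (log2 fold change 5.79), and Lcn2 from 8.41, 3.61 and 4.81 to 789.5, 304.07 and 519.26 FPKM (6.80). Cebpb and Cebpd themselves had log2 fold changes of 0.0028 and 0.58 in the same libraries. Tnf (2.59) and C3 (1.90) were also among the most abundant of the list.

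Of 12 genes known to need IRF4, IRF5 or IRF8, 8 were tested, with 5 up-regulated, 1 down-regulated and a median of 1.24. With scaling by library size only, these counts were 4 and 2. Ciita, the activator of MHC class II genes, fell from 2.65, 3.6 and 3.19 to 0.26, 0.19 and 0.32 FPKM (log2 fold change -3.36, edgeR adjusted p = 1.58e-06). Cd274, the gene of PD-L1, rose from 3.39, 4.17 and 3.7 to 81.31, 81.15 and 84.45 FPKM (4.67), and Cd40 rose (3.12). Il12b was at 0, 0 and 0.02 FPKM in control and at 14.99, 2.08 and 8.1 FPKM in TgAPPsweOCN;Ai9 libraries. Cst3, the most abundant of the list, was lower by adjusted p alone (-0.85).

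Genes driven by MAF factors were mostly lower, while Maf itself was higher. Of 11 tested, 6 were down-regulated and 1 up-regulated, and 9 were lower by adjusted p alone, with a median of -1.14. Mrc1, the mannose receptor, fell from 223.36, 187.28 and 212.53 to 27.51, 41.17 and 34.53 FPKM (log2 fold change -2.38), and Cd163 (-2.18), F13a1 (-2.11) and Stab1 (-1.58) fell with it. The complement genes C1qa (-0.44), C1qb (-0.54) and C1qc (-0.46) were lower by adjusted p alone, and the lowest value of any of the 3 in any library was 1752 FPKM. Il10 was the single rise, from 7.83, 8.65 and 8.9 to 31.95, 42.35 and 32.13 FPKM (2.28).

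For Klf4, 5 genes known to need it in macrophages were tested, of which 2 were up-regulated and 1 down-regulated, with a median of -0.066. Nos2, the inducible nitric oxide synthase, rose from 0.12, 0.03 and 0.07 to 2.12, 1.69 and 2.04 FPKM (log2 fold change 5.02), and Mrc1, also in the MAF list, fell. Nos2 lay outside the test where at least 10 counts were asked of every library. Cd14 had 332.61, 422.14 and 374.72 FPKM in control and 390.23, 232.4 and 303.39 FPKM in TgAPPsweOCN;Ai9 libraries, with overlap and no call (log2 fold change -0.066, edgeR adjusted p = 0.766). The counts of the lists for the C/EBP, MAF and KLF4 genes were the same without the third library of both genotypes.

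**Figure D5:**
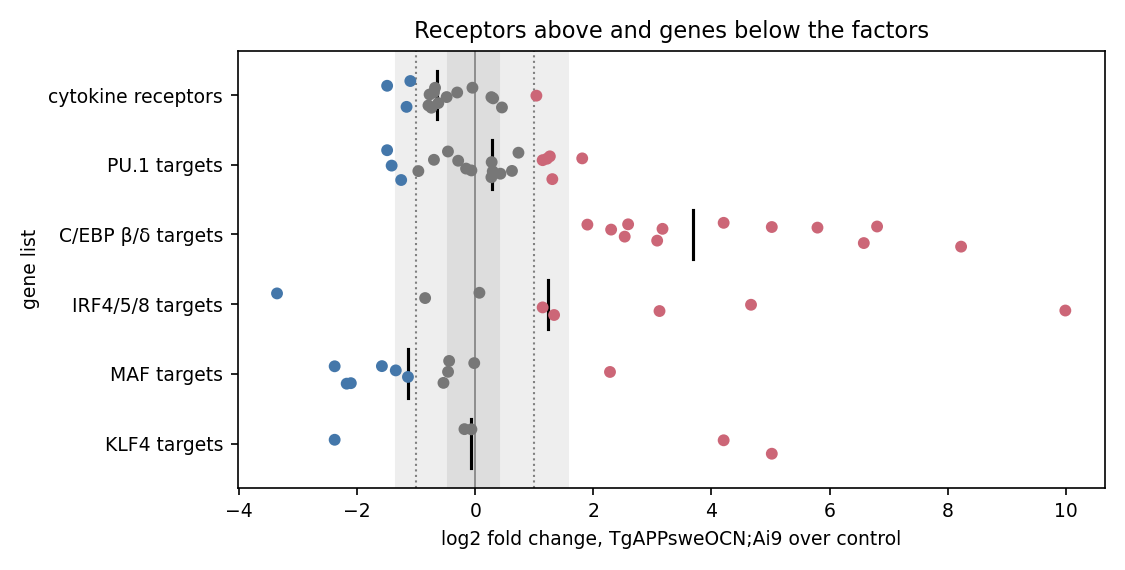
log2 fold change of cytokine receptors above the factors and of genes known to be driven by each of them, drawn as in the plot of relatives. All 12 points of the C/EBPβ and C/EBPδ list lie above 1, and 6 of the 11 of the MAF list lie at or past -1.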

How the data were processed

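The authors removed rRNA, adaptor and low-quality reads, and the submitters' processing notes name HISAT2 2.0.4, Bowtie2 2.2.5, RSEM 1.2.12, DESeq2 1.4.5 and mm10. The authors deposited estimated counts and FPKM per gene for 6 libraries. A second deposited table repeated the FPKM of 15656 genes beside the authors' own log2 ratio and p-value, which were not used. Estimated counts were rounded and tested with edgeR 4.0.16 in R 4.3.3 (quasi-likelihood test on genotype only, TMM, filterByExpr), with Benjamini-Hochberg adjustment over all 12701 genes. The calling thresholds, adjusted p at or below 0.05 and log2 fold change of at least 1 in size, are those of the study's methods. The code was tested on simulated data. Alternatives were RLE or library-size scaling, DESeq2 1.42.0, other filters, a replicate block, limma 3.58.1 on log2(FPKM + 1) or log2(FPKM + 0.1), no fold threshold, and leaving out libraries. Leaving out the third library of both genotypes was added after seeing the data.

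The members and lists were chosen with earlier results of these data known. From each list, the text names genes among the 4 with the highest mean FPKM, the 3 largest rises and the 3 largest falls among those called, and genes not tested. A few genes under this rule are not reported here. Coordinates are from GENCODE M21 and promoters from RefSeq. Tables and plots were made with pandas 2.3.3, numpy 2.4.6, scipy 1.17.1 and matplotlib 3.10.9 under Python 3.11.15.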

Additional observations from a re-analysis of the deposited data

How the results depend on the processing

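Spi1, Cebpa, Cebpd, Irf8, Maf and Klf4 kept their direction and an adjusted p at or below 0.05 under all 16 alternatives, as did Irf4 under the 14 that tested it. With limma on log2(FPKM + 1), log2(FPKM + 0.1) and log2(FPKM + 1) without a filter, 586, 667 and 589 genes went up past both thresholds and 843, 1286 and 846 went down, and 1 factor was down-regulated in each, since the filter removed Irf4 and the pseudocount held its fold under 1. Without a fold threshold, 4122 genes were higher and 4007 lower, with 4 factors each way. Cebpb turned to -0.213 with library-size scaling, -0.0072 under a minimum of 10 counts per library, and -0.181, -0.183 and -0.181 with limma, and ranged from -0.172 to 0.192 when libraries were left out. Irf5 turned to -0.0021 in all 3 limma fits, and Ctsc to -0.145 with library-size scaling. With libraries left out, Lyz2 ranged from -0.366 to 0.0141, Cd14 from -0.287 to 0.116 and Chil3 from -0.707 to 0.281. The cause was not tested. The replicate numbers did not pair the libraries (correlations of same-numbered deviations of 0.013, 0.0066 and 0.141), and the fit with a replicate block called 2 factors down and 0 up, and moved no factor across a threshold. Precision was lowest for Irf4, at 16 to 24 counts in TgAPPsweOCN;Ai9 libraries, and for Cebpb, both with uneven control libraries.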
